A study of Mus musculus with 6 samples.

Results

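Expression of 10 genes of the Notch pathway was examined, namely the receptors Notch1, Notch2, Notch3 and Notch4, the ligands Jag1, Jag2 and Dll1, and the target genes Hes1, Hey1 and Heyl. They were taken by mouse gene symbol from a table of 52325 Ensembl genes, and all 10 were found and passed the filter on low counts. RNA was sequenced from cells of breast tumours that arose in C57BL/6 mice of the C3-T tumour background carrying an Elf5-GFP reporter, in which green fluorescent protein (GFP) reports expression of the transcription factor Elf5. Both groups share strain, tumour background and reporter, and by the labels they differ in the sort. The Elf5+ group has 2 libraries of GFP-positive cells and the Elf5- group 4 libraries of GFP-negative cells. Age, treatment and the number of animals behind the libraries are not given in the labels, so the p-values rest on the variation among 6 libraries, which may be technical. Titles carry 1 of 2 numbers and a code, T1 or T2, which the labels do not define. Elf5+ library 1 shares both with Elf5- library 2 (pair 1), and Elf5+ library 2 with Elf5- library 4 (pair 2), while Elf5- libraries 1 and 3 are coded T1.

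Notch receptors are single-pass membrane proteins that are switched on by ligands of the Jagged and Delta families on a neighbouring cell. After ligand binding, a sheddase (Adam10) and then the gamma-secretase complex cut the receptor, and the released intracellular part enters the nucleus, where it joins the DNA-binding protein Rbpj and a Mastermind-like coactivator to turn on repressors of the Hes and Hey families. In the mammary gland the pathway is known for its part in luminal cell fate. Notch3 and Heyl are also expressed in pericytes and vascular smooth muscle, and Notch4 in endothelium.

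Library totals ran from 9106660 estimated counts in Elf5- library 4 to 53694884 in Elf5- library 3. Levels are given as CPM, the usual per-library scaling of counts to a common total, with totals adjusted by edgeR's TMM factors. Elf5, on whose reporter the cells were sorted, was at 77.7 and 137.0 CPM in the Elf5+ libraries and between 6.93 and 24.7 CPM in the Elf5- libraries, so the labels and the reporter gene go the same way. Before the GFP sort tumour cells were enriched with antibodies to CD45, CD31 and TER119. In the Elf5- libraries 12 fibroblast markers summed to between 17112 and 51330 CPM, against 1114 and 1340 CPM in the Elf5+ libraries. In bulk RNA of this kind, fewer cells of a type and less RNA per cell cannot be told apart. Of 20684 genes tested (edgeR's quasi-likelihood test, Benjamini-Hochberg adjusted p below 0.05) 4.37% were called, 3.79% lower and 0.585% higher in the Elf5+ libraries.

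RefSeq promoters (GRCm38.p6) were available for 7 of the 10 genes, the 4 receptors and 3 ligands. The 250 bases before the start were searched on both strands for the core letters bound by Rbpj (TGGGAA), by ETS factors such as Elf5 (CCGGAAG) and by Hes and Hey proteins (CACGTG). None of the 7 genes had any of the 3 motifs, which 21.6%, 6.91% and 6.02% of all 32851 promoters held. Notch3 is shown as the receptor whose 2 Elf5+ values both lay below all 4 Elf5- values. Hes5 and Hey2 are shown as relatives of the target genes, picked because the Rbpj letters were found in them. Hes7 also held the letters, while the windows of Hes6 and Nrarp did not. Matches to the Rbpj letters, on either strand, are in capitals. The windows lie on the minus strand at chr17:32166891-32167140 (Notch3) and chr10:30842784-30843033 (Hey2) and on the plus strand at chr4:154960673-154960922 (Hes5).
Notch3: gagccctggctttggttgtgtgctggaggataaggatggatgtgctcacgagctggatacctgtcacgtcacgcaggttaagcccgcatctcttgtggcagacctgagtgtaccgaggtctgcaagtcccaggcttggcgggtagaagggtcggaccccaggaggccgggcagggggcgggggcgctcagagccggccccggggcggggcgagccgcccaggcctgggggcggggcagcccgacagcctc
Hes5: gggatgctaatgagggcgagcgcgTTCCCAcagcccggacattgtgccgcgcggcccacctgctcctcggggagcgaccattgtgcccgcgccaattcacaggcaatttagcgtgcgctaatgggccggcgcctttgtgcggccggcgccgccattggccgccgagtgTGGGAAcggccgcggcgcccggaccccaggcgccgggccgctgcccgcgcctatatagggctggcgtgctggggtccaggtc
Hey2: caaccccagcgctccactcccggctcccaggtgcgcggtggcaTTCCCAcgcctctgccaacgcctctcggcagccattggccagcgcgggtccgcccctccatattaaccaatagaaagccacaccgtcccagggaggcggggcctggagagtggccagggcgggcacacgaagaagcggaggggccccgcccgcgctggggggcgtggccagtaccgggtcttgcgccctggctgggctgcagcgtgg
In the Hes5 window the letters begin 226 and 82 bases before the start, and in the Hey2 window 207 bases before it. A match is a string of letters and was not tested as a binding site.

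Among the receptors no gene passed the test. Only Notch3 had groups that did not overlap, with the Elf5+ values below, as in 14.8% of all genes tested. Notch1 (ENSMUSG00000026923.15, chromosome 2, 26457903 to 26516663, GRCm38), the receptor whose human counterpart is known from T cell leukaemia, was at 159 and 196 CPM in Elf5+ libraries 1 and 2 and at 125, 125, 95.03 and 177 CPM in Elf5- libraries 1 to 4. Only Elf5- library 4 lay within the Elf5+ range. Elf5+ against Elf5-, its log2 fold change came to 0.45 (SE 0.28, 95% interval -0.20 to 1.10, adjusted p = 0.505), or 0.29 without Elf5+ library 2. Notch2 (ENSMUSG00000027878.11, chromosome 3, 98013527 to 98150361) was at 72.5 and 138 CPM against 114, 106, 109 and 190 CPM. The Elf5- values of Notch2 were close together apart from the high value of library 4, and the Elf5+ values lay on either side of them. On the log2 scale Notch2 differed by -0.30 (SE 0.36, interval -1.13 to 0.53, adjusted p = 0.762), or by 0.10 without Elf5+ library 1.

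Notch3 (ENSMUSG00000038146.7, chromosome 17, 32120820 to 32166852) was at 35.6 and 92.4 CPM in the Elf5+ libraries and at 122, 104, 118 and 101 CPM in the Elf5- libraries. Both Elf5+ values were the lowest of the 6, but the Elf5+ libraries differed from each other by 1.35 on the log2(CPM + 1) scale, while the 4 Elf5- libraries spanned 0.27. Notch3 differed by -0.80 in log2 (SE 0.37, interval -1.65 to 0.05, adjusted p = 0.333). It depended on Elf5+ library 1, being -0.27 without that library and -1.65 without Elf5+ library 2. Notch4 (ENSMUSG00000015468.14, chromosome 17, 34564268 to 34588503), the receptor best known from endothelium, was the lowest of the receptors, at 9.38 and 2.09 CPM against 5.22, 10.6, 3.89 and 4.01 CPM. Its 2 highest values were in the libraries of pair 1, one of each sort. Its estimate was -0.05 in log2 (SE 0.67, interval -1.60 to 1.498), an interval that leaves a change of over 2-fold in either direction possible. The endothelial surface gene Pecam1, which encodes the CD31 used for depletion, was at 10.6 and 3.08 CPM against 19.1, 16.0, 8.48 and 4.42 CPM.

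**Figure D1:**
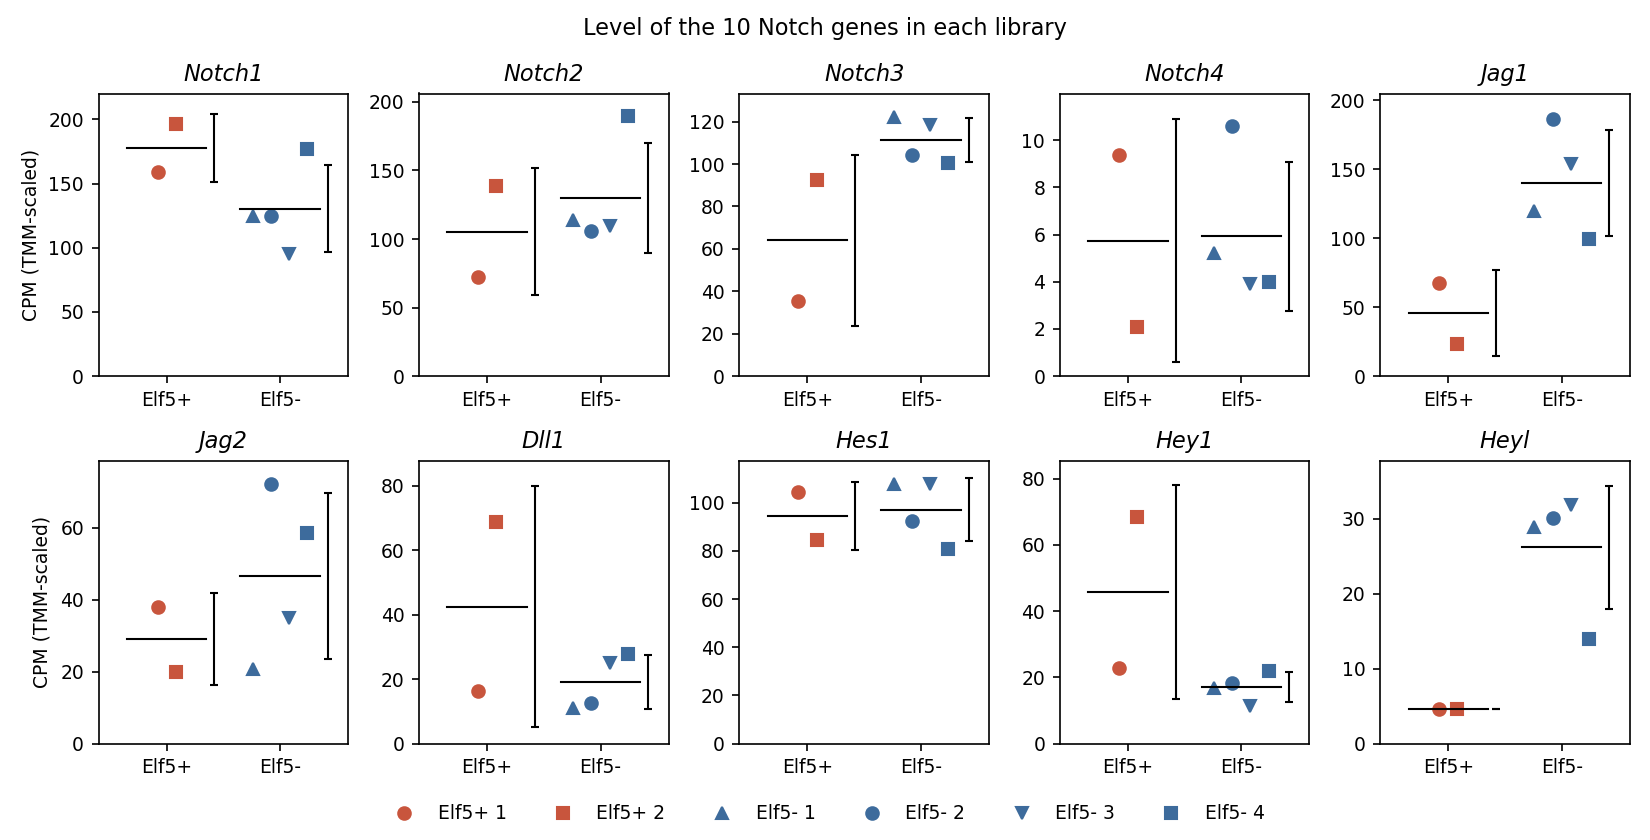
Level of each of the 10 genes in CPM (TMM-scaled, linear axes from 0) in 2 Elf5+ and 4 Elf5- libraries. Horizontal lines are group means and bars the SD, circles mark pair 1 and squares pair 2. The Elf5+ points of Heyl lie at 4.63 and 4.61 CPM, below all 4 Elf5- points, while those of Hes1 lie among them.

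The ligands Jag1 and Dll1 had estimates of opposite sign, and neither passed the test. Jag1 (ENSMUSG00000027276.7, chromosome 2, 137081456 to 137116644), a Jagged ligand, was at 67.9 and 23.5 CPM in the Elf5+ libraries and at 120, 187, 154 and 99.2 CPM in the Elf5- libraries. The groups did not overlap, with Elf5+ library 2 far below the rest. Group means were 45.7 ± 31.4 CPM (SD, n = 2) and 139.9 ± 38.5 CPM (SD, n = 4), a difference of -1.61 in log2 (SE 0.47, interval -2.70 to -0.53, adjusted p = 0.109). Jag1 was called by DESeq2 (adjusted p = 0.0134), without the low-count filter (0.0225) and without Elf5+ library 1 (0.0294, at -2.57 in log2). Without Elf5+ library 2 it was at -1.05 (adjusted p = 0.275). Jag2 (ENSMUSG00000002799.6, chromosome 12, 112907819 to 112929776), the other Jagged ligand, was at 38.0 and 20.0 CPM against 20.7, 72.0, 34.9 and 58.5 CPM. Its groups overlapped widely, and the 2 highest values were those of the T2-coded Elf5- libraries. On the log2 scale Jag2 differed by -0.68 (SE 0.51, interval -1.87 to 0.51, adjusted p = 0.600). That value was -1.21 without Elf5+ library 1, -0.29 without Elf5+ library 2 and -0.39 without Elf5- library 2.

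Dll1 (ENSMUSG00000014773.13, chromosome 17, 15367354 to 15376872), a Delta ligand, was at 16.2 and 68.8 CPM in the Elf5+ libraries and at 11.2, 12.5, 24.9 and 27.7 CPM in the Elf5- libraries. Only Elf5+ library 2 was above the Elf5- range. The estimate of 1.16 in log2 (SE 0.58, interval -0.18 to 2.50, adjusted p = 0.377) rested on that library and was -0.23 without it.

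Of the target genes Heyl fell in the Elf5+ libraries, Hes1 was at nearly the same mean in both groups, and Hey1 had a positive estimate that did not pass. Heyl (ENSMUSG00000032744.4, chromosome 4, 123233556 to 123249875) encodes a Hey-family repressor. It was at 4.63 and 4.61 CPM in Elf5+ libraries 1 and 2, from 206 and 238 counts, and at 28.9, 30.1, 31.9 and 14.0 CPM in Elf5- libraries 1 to 4, from 136 counts or more. The 2 Elf5+ values were almost equal, and the lowest Elf5- value was about 3 times as high. Mean levels were 4.62 ± 0.0197 CPM (SD, n = 2) and 26.2 ± 8.24 CPM (SD, n = 4). In log2 this is a difference of -2.51 (SE 0.41, interval -3.45 to -1.57, edgeR adjusted p = 0.0174). The estimate stayed between -2.70 and -2.40 when any single library was left out, but the call was lost without Elf5+ library 1 (adjusted p = 0.0539), Elf5+ library 2 (0.0733), Elf5- library 1 (0.0605) or Elf5- library 3 (0.0553).

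Hes1 (ENSMUSG00000022528.7, chromosome 16, 30064384 to 30067796), a repressor commonly read as a sign of Notch activity, was at 105 and 84.6 CPM in the Elf5+ libraries and at 108, 92.2, 108 and 80.8 CPM in the Elf5- libraries. The ranges overlapped almost completely. Its estimate was -0.04 in log2 (SE 0.22, adjusted p = 0.962), with a 95% interval of -0.56 to 0.48, the narrowest of the 10. Hey1 (ENSMUSG00000040289.8, chromosome 3, 8663359 to 8667256), a Hey-family repressor like Heyl, was at 22.8 and 68.5 CPM against 16.8, 18.2, 11.4 and 22.0 CPM. Both Elf5+ values were above all Elf5- values, but that of library 1 by less than 1 CPM. The estimate was 1.42 in log2 (SE 0.43, interval 0.42 to 2.42, adjusted p = 0.124), and 0.42 without Elf5+ library 2. Hey1 was called by DESeq2 (adjusted p = 0.0362), without the low-count filter (0.0433) and without Elf5+ library 1 (0.0267).

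In all, 1 of the 10 genes was called lower (against 3.79% of all genes) and 0 higher (0.585%), with 3 at an unadjusted p under 0.05. The Elf5+ values lay wholly below the Elf5- values in 3 of the 10, against 14.8% of all genes tested, and wholly above in 1, against 10.9%. The median log2 fold change of the 10 was -0.18, against 0.05 for all genes. Other call rules named 3 of the 10 with DESeq2 (10.6% of all genes called), 3 with no low-count filter (4.53%) and 2 without Elf5+ library 1 (3.14%). With so few genes these counts describe the 10 and do not set them apart from the rest.

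**Figure D2:**
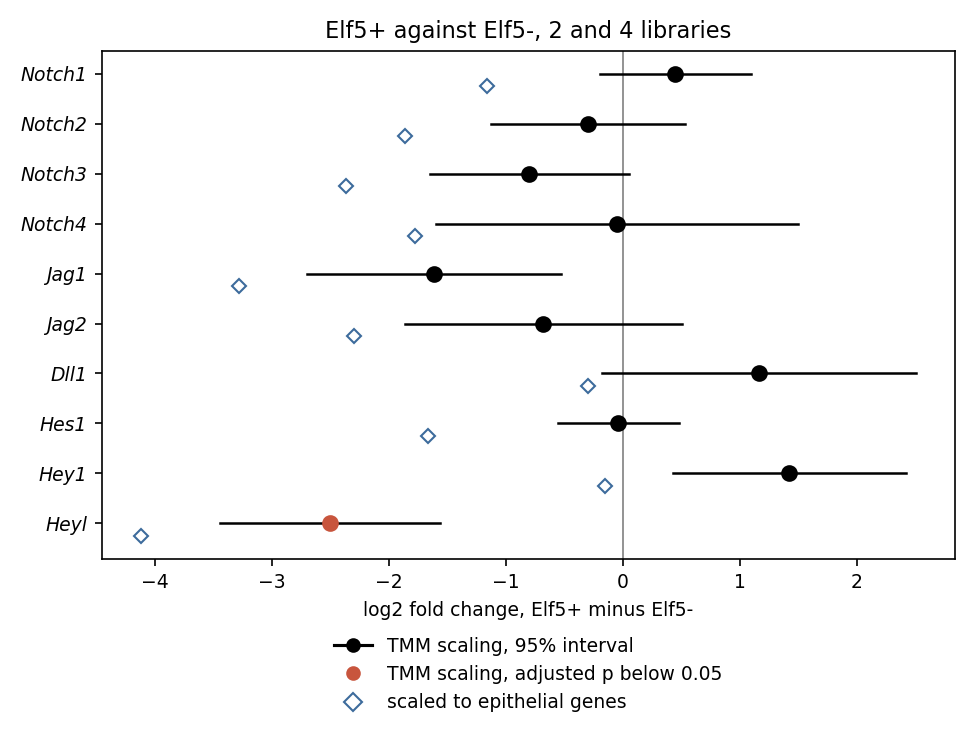
Log2 fold change, Elf5+ minus Elf5-, of each of the 10 genes with TMM scaling (filled circles with 95% intervals, 2 and 4 libraries) and with libraries scaled to 18 epithelial genes (open diamonds, no interval drawn). Heyl, in red, is the gene called with TMM scaling, and the diamonds lie to the left of every circle by about the shift in the median of all genes, which moved from 0.05 to -1.56.

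The direction of several genes depended on what the libraries were scaled to. When they were scaled to 18 luminal and pan-epithelial genes, the median over all genes moved from 0.05 to -1.56 in log2, 63.3% of all genes were called, and 99.9% of the calls were lower (86.6% with TMM). All 18 genes had positive estimates with TMM (median 1.44 in log2). Holding them level therefore shifted the estimates of all genes down by construction. With this epithelial scaling 7 of the 10 were called lower, all but Notch4, Dll1 and Hey1. Notch1, Dll1 and Hey1, which had positive values with TMM, were at -1.16, -0.30 and -0.15. Measured from the median of all genes, the values changed little. Rescaling the libraries shifts all genes by about the same amount, so this follows from the subtraction and is no check on any gene. On that footing Heyl was at -2.56 in log2 with epithelial and with TMM scaling, and, in the same order, Jag1 was at -1.71 and -1.66, Notch3 at -0.80 and -0.85, Hes1 at -0.11 and -0.09, and Hey1 at 1.41 and 1.37. Dll1 was at 1.27 with epithelial and 1.12 with TMM scaling, and Notch4 at -0.21 and -0.10. With DESeq2 size factors or upper quartile factors no gene of the 10 moved by more than 0.021.

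Within the 2 pairs of T2 libraries all 10 genes differed in the same direction in both pairs, 6 lower and 4 higher in the Elf5+ library, where 69% of all genes tested had the same sign in both. On the log2(CPM + 1) scale Heyl differed by -2.46 in pair 1 and -1.42 in pair 2, and Jag1 by -1.45 and -2.03. Jag2 differed by -0.90 and -1.50. Other genes were far from equal in size between the pairs. Notch3 differed by -1.53 in pair 1 and only -0.12 in pair 2, whereas Hey1 differed by 0.31 and 1.59 and Dll1 by 0.35 and 1.28. Hes1 differed by 0.18 and 0.06, against a negative estimate over all 6 libraries. The labels do not say that a pair is 1 tumour.

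Per kilobase of exon, which allows levels of different genes to be compared, Hes1 was the highest of the 10 in both groups, at a mean of 46.4 CPM per kb in the Elf5+ and 47.7 in the Elf5- libraries, with no overlap with the next gene. That next gene was Hey1 in the Elf5+ group (14.0 ± 9.89, SD, n = 2) and Jag1 in the Elf5- group (24.0 ± 6.61, SD, n = 4). From Hey1 down to Jag2 each Elf5+ gene overlapped its neighbour in the order Hey1, Notch1, Dll1, Notch2, Notch3, Jag1 and Jag2. Heyl (0.904) and Notch4 (0.712) were lowest there, apart from Jag2 but overlapping each other. In the Elf5- group Jag1 did not overlap the next gene, Notch3 (13.8), which was followed by Notch2 (12.03), Notch1 (9.15), Jag2 (6.68), Hey1 (5.24), Heyl (5.12) and Dll1 (4.51), each overlapping the next, and Notch4 (0.735) stood below all. Exon lengths count every annotated exon of a gene once, 14232 bases for Notch1 and 8089 for Notch3, so unused exons lower a gene's level.

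Shares within each role show which gene supplied most of its RNA. Notch1 made up 47.6% and 36.0% of the receptor total per kb in the Elf5+ libraries and 24.95%, 26.7%, 20.9% and 28.9% in the Elf5- libraries, with no overlap. Notch3 made up 18.7% and 29.8% against 43.0%, 39.3%, 45.8% and 29.0%, and Elf5- library 4 lay just below Elf5+ library 2. The summed receptors were at 23.5 and 38.3 CPM per kb against 35.1, 32.8, 31.9 and 43.0. Among the ligands Jag1 held the largest share in 5 of the 6 libraries, from 53.2% to 78.5%. Elf5+ library 2 was the exception, with 70.2% Dll1 and 17.4% Jag1. Hes1 made up 86.7% and 65.5% of the target total in the Elf5+ libraries, and Heyl only 1.53% and 1.42%, against 5.56% to 10.4% of the target total in the Elf5- libraries. Summed target levels were 59.2 and 63.4 CPM per kb in the Elf5+ libraries and 49.2 to 63.6 in the Elf5- libraries, so the Elf5+ sums lay within the Elf5- range. These shares were not tested.

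**Figure D3:**
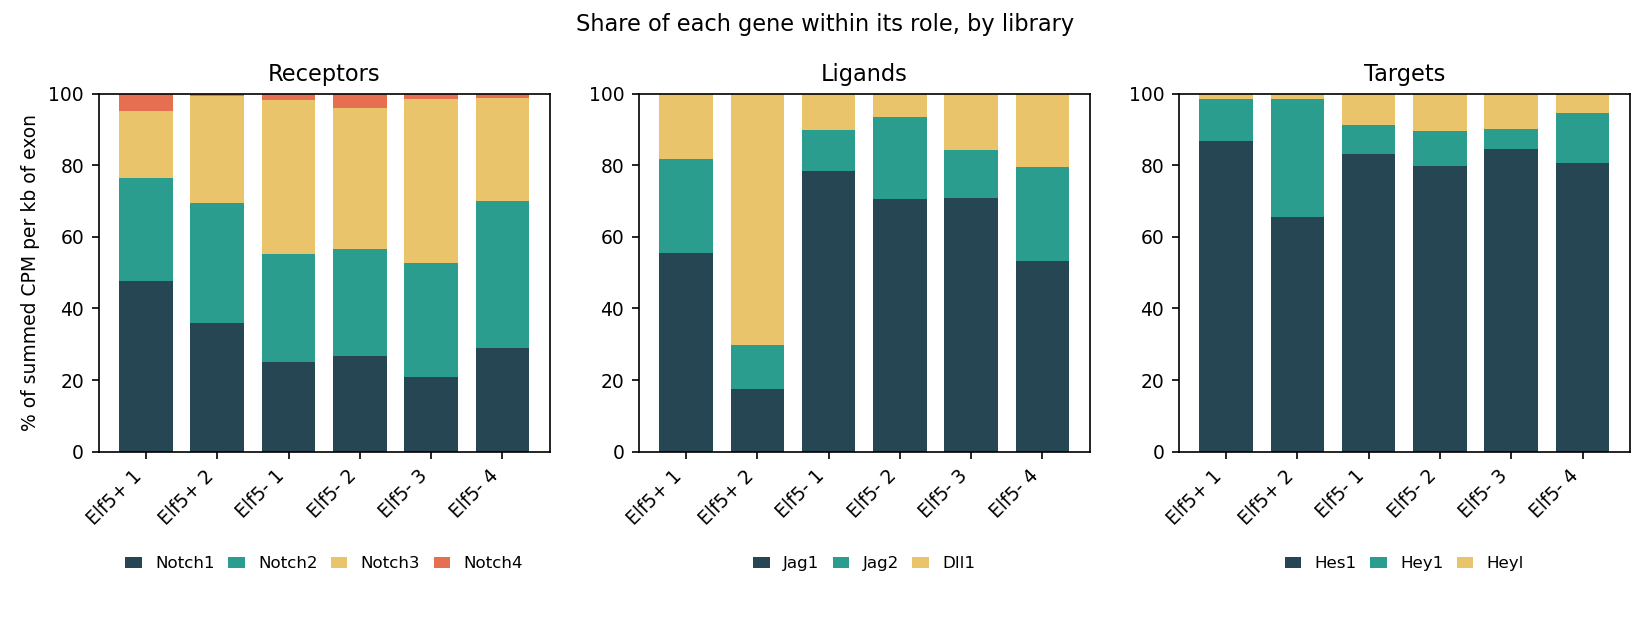
Share of each gene in the summed CPM per kb of exon of its role (receptors, ligands, targets), in percent, for each of the 2 Elf5+ and 4 Elf5- libraries. Notch1 takes 47.6% and 36.0% of the receptor total in the Elf5+ bars and at most 28.9% in the Elf5- bars, and Dll1 takes 70.2% of the ligand total in Elf5+ library 2.

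Of 52 other genes of the pathway 49 passed the filter on low counts, and 5 of these fell and 0 rose (3.79% of all genes called lower and 0.585% higher). Their median log2 fold change was -0.24. The 5 were Dlk1, Numbl, Mfap2, Mfap5 and Ccn3. Numbl, a relative of the Notch inhibitor Numb, was at 8.84 and 7.95 CPM in the Elf5+ libraries and at 38.2, 40.3, 43.9 and 42.6 CPM in the Elf5- libraries. Both groups of Numbl values were tight and lay far apart, -2.30 apart in log2 (SE 0.24, adjusted p = 0.0100), and Numbl was called whichever single library was left out. Dlk1, a Delta-like protein that lacks the region by which the other ligands bind Notch, was at 0.112 and 0.155 CPM against 5.17, 9.01, 2.20 and 4.32 CPM (-5.24 in log2, SE 0.79, adjusted p = 0.0148). Without Elf5+ library 2 its adjusted p was 0.0564.

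The other 3 were matrix proteins that have been reported to modulate Notch signalling. Mfap2 and Mfap5, microfibril proteins, were at 0.619 to 1.91 and 5.92 to 7.45 CPM in the Elf5+ libraries, against 23.8 to 65.3 and 76.5 to 365 CPM. Their differences in log2 were -4.88 (SE 0.70) and -4.76 (SE 0.72). Ccn3 was at 5.20 and 2.52 CPM against 39.7 to 175 CPM (-4.43 in log2, SE 0.80). Mfap5 is also on the fibroblast marker list used here. Without Elf5+ library 2 the number of the 49 called was 2, Numbl and Mfap2, in a fit that called 1.07% of all genes. Without both Elf5- libraries 1 and 2, where 0.372% of all genes were called, it was 2, Mfap5 and Ccn3.

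The core machinery gave 0 calls. Of 10 genes of the transcription complex 6 had positive and 4 negative estimates, between -0.63 and 0.61. Rbpj itself was at 125 and 168 CPM against 142, 200, 164 and 149 CPM, with overlapping groups (log2 fold change -0.16, SE 0.25). Of 9 genes of the secretase complex and the sheddases, the one of smallest p was Adam10, the sheddase that makes the first cut, at 78.0 and 77.1 CPM against 121, 121, 129 and 105 CPM. The Adam10 groups did not overlap, and its estimate of -0.62 in log2 (SE 0.21) did not pass (adjusted p = 0.1597). Psenen, a subunit of gamma-secretase, had nearly the same p and the opposite sign, at 65.7 and 48.3 CPM against 29.6, 34.7, 40.2 and 37.5 CPM (0.68 in log2, SE 0.23, adjusted p = 0.169). Its Elf5+ values lay above all Elf5- values. Pofut1, which adds the O-fucose that Notch receptors need, was at 30.6 and 31.1 CPM against 45.7, 48.7, 55.2 and 45.3 CPM (-0.66, SE 0.21, adjusted p = 0.141). Snw1, a partner of the Notch intracellular domain, was at 173 and 119 CPM against 78.0, 127, 99.6 and 85.4 CPM. Its estimate was 0.58 in log2 (SE 0.27, adjusted p = 0.343), and -1.04 with epithelial scaling.

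Other targets were low or overlapped. Hey2, the third Hey-family repressor, was at 2.16 and 1.70 CPM against 4.61, 4.54, 3.78 and 3.60 CPM. Its Elf5+ values were the lowest 2 of the 6, and its estimate was -1.10 in log2 (SE 0.40, adjusted p = 0.205, and 0.0201 with DESeq2). Hes5, whose promoter window held the Rbpj letters at 2 places, was at 0.450 and 0 CPM against 0.655, 0.126, 0 and 0.103 CPM. These are too few counts for a comparison. Nrarp, a feedback inhibitor of the pathway, was at 21.5 and 11.4 CPM against 16.0, 26.0, 18.3 and 20.9 CPM, with overlapping groups.

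Markers of other cell types differed between the same groups, and their part in the lower Heyl level and in the other values was not tested. Over all genes tested 3.79% were called lower, and 14.8% had Elf5+ values wholly below the Elf5- values. Of 11 pericyte and vascular smooth muscle markers 8 fell and all 11 had Elf5+ values below every Elf5- value, with a median log2 fold change of -4.25. Their summed level was 105 and 124 CPM in the Elf5+ libraries and 669 to 1647 CPM in the Elf5- libraries, and none of the 11 was at 0 counts in both Elf5+ libraries. Rgs5, a pericyte regulator of G protein signalling, was at 7.92 and 4.35 CPM against 395, 278, 268 and 126 CPM, and Pdgfrb, the pericyte PDGF receptor, at 21.7 and 10.2 CPM against 182 to 357 CPM. Acta2, smooth muscle actin, was at 32.9 and 5.88 CPM against 120 to 453 CPM. Elf5- library 4, which had the lowest Heyl level of its group, also had the lowest Rgs5, Pdgfrb and Acta2 levels. All but Abcc9 and Cox4i2 of the 11 markers were lowest there within the Elf5- group. That library also had the lowest endothelial (72.7 CPM) and leukocyte (50.4 CPM) sums of the Elf5- group. The fibroblast and luminal progenitor sums were lowest in Elf5- library 2. The basal and luminal sums were lowest in Elf5- library 1, and the skeletal muscle sum in Elf5- library 3. The highest Rgs5 level (395 CPM) was in Elf5- library 1, but the highest Heyl level (31.9 CPM) in Elf5- library 3. The fold change of Heyl was smaller than the median of that list, and those of Notch3 and Jag1 smaller still.

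For the lists that follow, the shares over all genes tested were 3.79% called lower and 0.585% called higher. Of 12 fibroblast markers 11 fell (median -4.72). Among them were the collagen genes Col1a1, Col1a2 and Col3a1, at 134 to 441 CPM in the Elf5+ and 3537 to 19805 CPM in the Elf5- libraries. Of 12 endothelial markers 3 fell (median -1.23), with summed levels of 52.1 and 18.7 CPM against 72.7 to 177 CPM. Eng, a TGF-beta coreceptor, was at 10.1 and 2.69 CPM against 32.0 to 56.9 CPM, Tek, the angiopoietin receptor, at 1.87 and 0.639 CPM against 6.52 to 23.4 CPM, and Esam, which was not called, at 4.99 and 2.21 CPM against 8.23 to 24.9 CPM. Elf5+ library 1 had more endothelial signal than Elf5+ library 2. It had the higher Notch4, Jag1, Jag2 and Hes1 levels of the 2, and the lower Notch1, Notch2, Notch3, Dll1 and Hey1 levels. The endothelial sum of the Elf5- libraries was highest in library 1 (177 CPM). Their Notch4 (10.6 CPM) and Jag1 (187 CPM) levels were highest in library 2. Of 8 basal and myoepithelial markers 2 fell, Krt5 and Ngfr, and 6 had negative estimates (median -2.71). Their sums, 1032 and 728 CPM against 636 to 920 CPM, overlapped, but consist mostly of the keratins Krt14 and Krt17. Krt5 was at 3.96 and 1.37 CPM against 32.2 to 73.0 CPM, while Krt14 (562 and 533 against 288 to 490 CPM) and Krt17 (455 and 189 against 220 to 296 CPM) were not called. Of 18 luminal and pan-epithelial genes 10 rose, from sums of 2160 to 3719 CPM in the Elf5- libraries to 8591 and 6334 CPM. Epcam rose (1372 and 1483 CPM against 382 to 703 CPM), and Krt8 and Krt18 lay above the Elf5- values without being called. Of 6 luminal progenitor markers 5 had positive estimates and 2 rose. These 2 were Lcn2 (2218 and 1525 CPM against 325 to 741 CPM) and Elf5, whose rise the sort itself fixed. Kit, Csn3 and Aldh1a3 overlapped. The estimate of Aldh1a3 was negative (-0.34 in log2, 23.5 and 51.3 CPM against 28.6 to 66.8 CPM). Summed leukocyte markers overlapped between the groups, with 0 of 8 called and Csf1r, Laptm5 and Coro1a the highest. Skeletal muscle markers summed to 255 and 42.5 CPM in Elf5- libraries 1 and 2 and at most 6.17 CPM elsewhere. Acta1, Tnnt3 and Ckm were the highest of them, and without those 2 libraries Heyl was at -2.32 (adjusted p = 0.155).

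**Figure D4:**
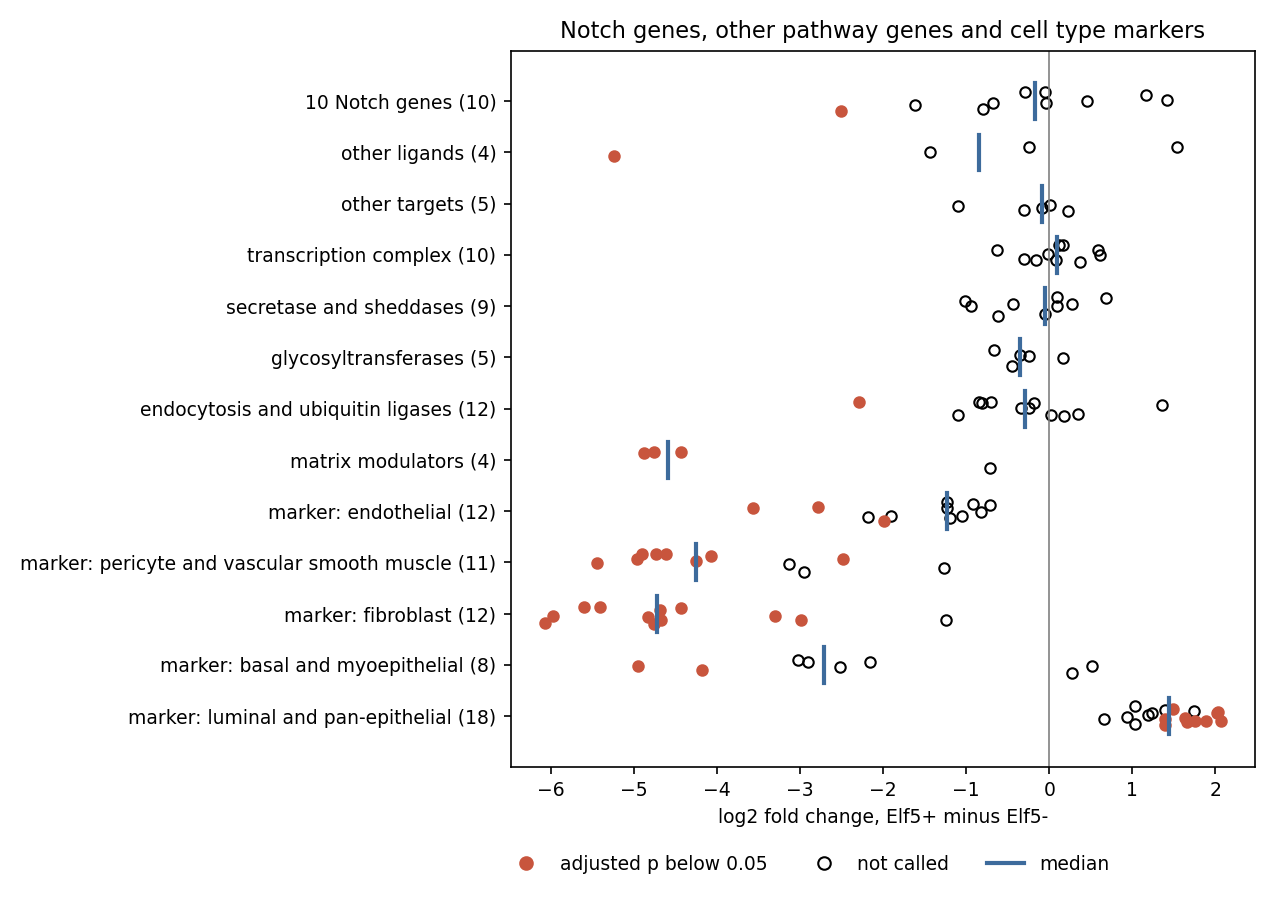
Log2 fold change, Elf5+ minus Elf5-, of the 10 Notch genes, of 49 other pathway genes by role and of markers of 5 cell types (number of genes tested in brackets). Points are genes, red where the adjusted p was below 0.05, and blue bars are medians. The 10 Notch genes centre near 0 (median -0.18), while pericyte and fibroblast markers centre at -4.25 and -4.72.

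The genes most like a given member were taken as those with the smallest root mean square difference of centred log2(CPM + 1) over the 6 libraries, among 11267 genes that averaged 5 CPM or more. For Heyl these were Rcn1 (0.22), Dchs1 (0.23) and Tbcel (0.23), all 3 called lower, at -2.06, -2.59 and -2.85 in log2. The nearest to Notch1 were Kmt2b (0.057), Zfp553 (0.071) and Kcnq1ot1 (0.079), to Notch2 Zfc3h1 (0.096), Tango6 (0.11) and Hivep2 (0.11), and to Notch3 Itpkb (0.082), Palld (0.088) and Dock4 (0.14). Nearest to Notch4 was Smad6 (0.11), at 15.5 and 4.34 CPM against 9.01, 18.9, 8.85 and 7.51 CPM, which had the same 2 high libraries of pair 1, followed by Uap1l1 (0.14) and Six4 (0.17). Among the 10 themselves Notch1 and Notch2 were the most alike (0.44), and Heyl was nearest to Jag1 (0.54) and farthest from Hey1 (1.77). These likenesses describe 6 libraries that share their preparation and were not tested. Genes picked for a like profile over these libraries share its group difference and its high libraries by the choice itself.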

How the data were processed

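Antibodies to CD45, CD31 and TER119 were used to enrich tumour cells from digested tumours before the GFP sort, per the labels' protocols. The authors deposited a table of expected counts per Ensembl gene. Their processing notes name Salmon and GRCm38.p5, without version or annotation (not given in the sources used here). Salmon divides reads that fit several transcripts by a model, so members of close families may exchange counts. Of 313950 deposited values 0 differed from a whole number.

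IDs were matched to GENCODE M21 (GRCm38) without their version, which gave symbols for 52220 of 52325. Low counts were removed with filterByExpr, libraries scaled with TMM factors, and groups compared with edgeR 4.0.16 (quasi-likelihood test, no block, R 4.3.3), limma 3.58.1 and DESeq2 1.42.0 serving as alternatives. SE is the log2 fold change over the root of F, and intervals cover 95%. Totals of 9106660 to 53694884 limit the precision of low genes. The genes named are the 10, of the other pathway genes those called and that of smallest p in each role, and those most alike, and of each marker list the 3 of highest mean were named. Rbpj, Psenen, Hes5, Hes6, Hes7, Nrarp, Ngfr, Elf5, Pecam1, Abcc9, Cox4i2 and Aldh1a3 were added after their values were seen. The 10 genes, the lists and the alternatives were chosen with earlier results of these data known. Figures used Python 3.11.15 and matplotlib 3.10.9.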

Additional observations from a re-analysis of the deposited data

Results flagged for a closer look

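In the 4 Elf5- libraries 43 results were checked for a library whose gap to its nearest neighbour exceeded the 95% critical value of Dixon's ratio, which chance does in about 5% of groups, and 5 were found. Notch2 was at 189.7 CPM in Elf5- library 4, with 114.1 CPM the next highest. Heyl was at 14.0 CPM in the same library, the shallowest of the 6, with 28.9 CPM the next lowest. Smad6 and Six4 were at 18.9 and 23.3 CPM in Elf5- library 2, with the next values at 9.01 and 11.1 CPM. Both had been picked for their likeness to Notch4 over the same libraries. Their flags are therefore not independent of the Notch4 values or of each other. The summed skeletal muscle markers were at 254.8 CPM in Elf5- library 1, with the next at 42.5 CPM.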

How the results depend on the processing

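Heyl kept its sign in all 19 alternatives and was called in 13 of them, Jag1 kept its sign in 19 and was called in 6, and Hey1 kept its sign in 18 and was called in 3. Of the 10 genes, 7 were called lower with epithelial scaling (13099 of all genes called, 42 of the other pathway genes). With no low-count filter 2 were lower and 1 higher (1604 of all genes), and with DESeq2 also 2 and 1 (2199). In the T2 libraries with no replicate block 0 were lower, 0 of all genes were called (1932 at an unadjusted p under 0.05, and no other tool was run there) and 0 of the other pathway genes. Without Elf5- libraries 1 and 2, the counts were 0 lower, 75 of all genes and 2 of the others. With the title number as a replicate block 2 were lower, Jag1 (adjusted p = 0.0491) and Heyl, while 6.11% of all genes were called, and in the T2 libraries alone with the block 3, Jag2 included (1917 of all genes, or 9.88%). The deviations of the 2 libraries of each T2 pair correlated across genes at 0.60 and 0.70. Those of the Elf5+ and T1 libraries of the same number correlated at 0.14 and -0.035. The deviations of the 2 Elf5+ libraries mirror each other, so these values are not independent. The labels do not say that a number pairs libraries. Leaving out each library in turn gave 0 to 1 lower, 0 to 1 higher, 236 to 944 of all genes and 2 to 5 of the other pathway genes. A lone Elf5+ library is assumed to vary like the others.

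Signs changed for Notch1 (-1.16), Dll1 (-0.30), Hey1 (-0.15) and Snw1 (-1.04) with epithelial scaling. They also changed for Notch2 (0.095 without Elf5+ library 1) and Dll1 (-0.23 without Elf5+ library 2). For Notch4 they changed without Elf5- libraries 1 and 2 (0.55), Elf5+ library 2 (0.66) or Elf5- library 2 (0.39). Signs were kept for Notch2 without Elf5+ library 2 (-0.84), and for Dll1 (1.86) and Notch4 (-1.51) without Elf5+ library 1. Hes1, near 0, was at 0.13 in the T2 libraries with and without the block and 0.013 without Elf5- libraries 1 and 2. It was at 0.10 without Elf5+ library 2, 0.015 without Elf5- library 1 and 0.013 without Elf5- library 3. Its negative sign was kept without Elf5+ library 1 (-0.20). Beyond the fewer libraries of the settings that leave some out, the cause was not tested. Low counts limit the precision of Hes5 and Dlk1, among others. The estimate of Notch4 was imprecise too (SE 0.67). It had 39 to 417 counts per library, and its 2 Elf5+ values lay far apart, at 9.38 and 2.09 CPM.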
